A study of Homo sapiens with 4 samples.

Results

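Integrins and laminins are the receptors and the ligands through which a cell holds on to a basement membrane. They were followed here in LN229 cells, an established human glioblastoma line, treated with UM-164, a small molecule that inhibits both the Src and the p38 kinases. The genes were chosen by symbol alone, as the protein-coding integrin alpha, integrin beta and laminin alpha, beta and gamma chain genes, by a rule that uses no measured value and was set with earlier results of these data known. This gave 37 of the 27694 genes in the expression table, 25 of them integrins (17 alpha and 8 beta chains) and 12 laminins (5 alpha, 4 beta and 3 gamma chains). ITGA8 was not analysed here.

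Cells of the UM-164 group received 100 nM UM-164 for 24 h and cells of the vehicle group received the solvent DMSO. The labels name no other treatment and no engineered allele in either group. RNA was sequenced from 2 libraries of each group, 4 in all, and the levels are FPKM, a measure scaled to transcript length and to the fragments mapped in each library, so levels of different genes can be compared per length. Nothing in the labels tells whether replicate libraries were made from different cultures, and the p-values therefore measure only how far these libraries spread, which could be technical spread alone. A single cell line was used, and in bulk RNA fewer cells of a kind and less RNA per cell cannot be told apart.

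Each integrin is a pair of 1 alpha and 1 beta chain that crosses the cell membrane. The alpha chain largely sets which matrix protein is bound, and the tail of the beta chain is coupled through talin, kindlin and other adaptors to the actin skeleton and to the FAK and Src kinases. Laminins are secreted trimers of an alpha, a beta and a gamma chain that form the sheet of the basement membrane, and in the brain the vessel wall is their main site, along which glioma cells migrate.

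Of the 37 genes, 21 had a mean of at least 1 FPKM over the 4 libraries and were tested: 15 integrins (10 alpha and 5 beta chains) and 6 laminins (2 alpha, 3 beta and 1 gamma chain). The other 16 were below that level. Differences are UM-164 minus vehicle on the scale of log2(FPKM + 0.5), where a gene at a low level shows less than its full change, and a gene was called where the limma p-value adjusted by the Benjamini-Hochberg method over all 11516 tested genes was under 0.05. Of the 21 tested genes, 1 was called higher, ITGA9, against 0.452% of all tested genes. By limma 0 were called lower, against 0.860% of all tested genes. At an unadjusted limma p under 0.05, 4 were lower and 4 were higher. All tested genes gave 10.6% lower, 9.47% higher and 20.1% in either direction. The 4 higher genes include ITGA10, which reached the level for testing only through its UM-164 libraries. Groups that did not overlap were common, at 53.2% of all tested genes.

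Across the series, 52 genes were called higher and 99 lower. The correlation of replicate libraries across tested genes was 0.977 for UM-164 and 0.976 for vehicle. Genes that are not protein-coding took 16.6% and 18.3% of summed FPKM in the UM-164 libraries and 10.3% and 9.94% in the vehicle libraries. The 37 integrin and laminin genes took 0.171% and 0.180% in the UM-164 libraries and 0.195% and 0.230% in the vehicle libraries. Summed FPKM over all genes was 316052 and 318802 in the UM-164 libraries and 292776 and 281619 in the vehicle libraries. These shares were thus taken of a larger sum in the UM-164 libraries. Total read numbers are unknown from FPKM. Of 8 glioma cell markers 7 were tested, and 2 were called higher and 0 lower, against 0.452% and 0.860% of all tested genes. The called genes were FABP7 (log2 difference 1.25, limma adjusted p = 0.0159) and S100B (log2 difference 0.79, limma adjusted p = 0.0326). At an unadjusted p under 0.05, 3 were higher and 2 lower, against 9.47% and 10.6% of all tested genes. OLIG2 was the other higher gene (log2 difference 0.97, limma adjusted p = 0.0992). NES and VIM were the lower genes (log2 difference -0.44 and -0.53, limma adjusted p = 0.0941 and 0.174). GFAP, the astrocyte filament protein, was under 1 FPKM in all 4 libraries. The summed level of the glioma list was 1087 and 1204 FPKM in UM-164 libraries and 1146 and 1013 FPKM in vehicle libraries, and the part of these markers in the integrin and laminin results was not tested. All 6 endothelial markers averaged under 1 FPKM, with sums of 0.528 and 0.859 FPKM in UM-164 libraries and 0.440 and 0.395 FPKM in vehicle libraries. Of the 6 leukocyte markers measured, 5 averaged under 1 FPKM, CD68 being the exception. Of 5 epithelial markers 2 were tested and 0 called, against 1.31% of all tested genes. KRT14 had 4.92 and 6.004 FPKM in UM-164 libraries and 9.49 and 7.61 FPKM in vehicle libraries (log2 difference -0.60, limma adjusted p = 0.147). KRT19 had 2.47 and 2.49 FPKM in UM-164 libraries and 1.45 and 1.997 FPKM in vehicle libraries (log2 difference 0.44, limma adjusted p = 0.264).

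ITGA9 rose on UM-164 treatment. It encodes the alpha chain that pairs with the ITGB1 beta chain to bind tenascin C, osteopontin and VCAM1. It had 10.2 and 10.1 FPKM in the UM-164 libraries, against 3.18 and 3.75 FPKM in the vehicle libraries. Both UM-164 libraries stood far above both vehicle libraries. Groups did not overlap in either direction for 53.2% of all tested genes. The means were 10.1 ± 0.0164 FPKM in UM-164 cells and 3.47 ± 0.403 FPKM in vehicle cells (SD, n = 2 each), a ratio of 2.93. The log2 difference was 1.43 (SE 0.12, 95% interval 1.11 to 1.74, limma adjusted p = 0.0207), the 55th largest of the 11516 tested genes and the 21st largest among the 151 called in either direction when those are ordered from the highest. The size of the difference was similar under each change of processing, between 1.32 and 1.53, but the call depended on the vehicle libraries: without vehicle replicate 1 it was 1.32 (limma adjusted p = 0.0996) and without vehicle replicate 2 it was 1.53 (limma adjusted p = 0.0951), in fits where 4 and 6 genes of the whole table were called. With no filter on low levels the limma adjusted p was 0.156, and over the alternatives it ran from 0.0168 to 0.156. An exact permutation test of 2 against 2 libraries cannot give a two-sided p under 0.33.

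ITGA9 (ENSG00000144668) lies on chromosome 3 from 37452115 to 37823514 on the plus strand of GRCh38. Of its 8277 annotated exon bases, 535 (6.46%) are also covered by exons of ITGA9-AS1 on the other strand, and no source used here states whether reads were counted by strand. ITGA9-AS1 had 0.168 and 0.205 FPKM in UM-164 libraries and 0.165 and 0.279 FPKM in vehicle libraries, so the antisense gene stood at a low level in all 4 libraries. ITGA4, whose product is the closest relative of the ITGA9 chain and shares several of its ligands, had 5.04 and 5.28 FPKM in UM-164 libraries and 5.95 and 7.59 FPKM in vehicle libraries (log2 difference -0.35, SE 0.15, limma adjusted p = 0.275). The UM-164 libraries of ITGA4 were both below the vehicle libraries, but the difference did not pass the test. The ratio of ITGA9 to ITGA4 was 2.01 and 1.92 in UM-164 libraries and 0.535 and 0.494 in vehicle libraries, so that the order of these related chains was the opposite in the 2 groups.

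**Figure D1:**
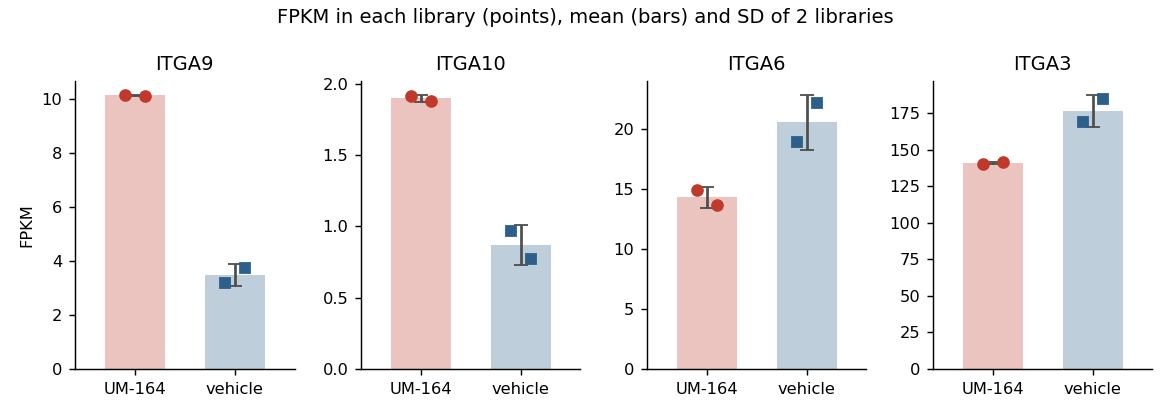
FPKM of the 4 tested integrin alpha genes with the smallest p-values, with UM-164 left of vehicle: points are libraries, bars are means and whiskers are SD over 2 libraries, each panel on its own scale from 0. ITGA9 had 10.2 and 10.1 FPKM in UM-164 libraries and 3.18 and 3.75 FPKM in vehicle libraries and alone passed the test, while ITGA10 was higher and ITGA6 and ITGA3 lower in UM-164 libraries without passing it.

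Among the alpha chains that bind collagen, none passed the test, where 1.31% of all tested genes did in either direction. ITGA10, a collagen receptor best known from cartilage, had 1.91 and 1.88 FPKM in UM-164 libraries and 0.969 and 0.771 FPKM in vehicle libraries. The groups did not overlap, as for 53.2% of all tested genes. The log2 difference was 0.81 (SE 0.17, 95% interval 0.37 to 1.25, limma adjusted p = 0.0971). Its vehicle mean of 0.870 FPKM was under the level needed for testing, so that it was tested only through its UM-164 mean of 1.897 FPKM. ITGA2, a receptor for fibrillar collagen on platelets and epithelia, had 4.01 and 3.55 FPKM in UM-164 libraries and 2.85 and 2.46 FPKM in vehicle libraries (log2 difference 0.44, SE 0.14, limma adjusted p = 0.193). ITGA1, which lies 30115 bases from ITGA2 on chromosome 5 and prefers basement membrane collagen, had 1.12 and 0.900 FPKM in UM-164 libraries and 0.610 and 0.955 FPKM in vehicle libraries and was not tested. The ITGA1 value is uncertain, since 2.56% of its exon bases are shared with PELO and 3.08% with AC022133.1, both on the same strand. AC022133.1 has no level in the deposited data. PELO had 8.85 and 8.51 FPKM in UM-164 libraries and 9.89 and 9.39 FPKM in vehicle libraries. The part of reads from either gene in the ITGA1 level was not tested. ITGA11, a receptor of fibrillar collagen on fibroblasts, had 0.886 and 0.865 FPKM in UM-164 libraries and 0.878 and 0.843 FPKM in vehicle libraries. The 4 collagen-binding chains together summed to 7.94 and 7.19 FPKM in UM-164 libraries and 5.30 and 5.03 FPKM in vehicle libraries.

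None of the alpha chains that bind laminin passed the test, where 1.31% of all tested genes did in either direction. ITGA3, the main receptor chain for the laminins of epithelial and vascular basement membranes, was the most abundant of the 37 genes and had 140.4 and 141.3 FPKM in UM-164 libraries and 168.7 and 184.2 FPKM in vehicle libraries. The UM-164 libraries were both below the vehicle libraries, by a log2 difference of -0.32 that did not pass the test (SE 0.08, 95% interval -0.54 to -0.11, limma adjusted p = 0.139). ITGA6, the other widely used laminin receptor chain and a marker of glioma stem-like cells, had 14.9 and 13.7 FPKM in UM-164 libraries and 18.9 and 22.2 FPKM in vehicle libraries. Its log2 difference of -0.50 was the lowest of the 21 tested genes, and it too missed the threshold (SE 0.12, 95% interval -0.81 to -0.20, limma adjusted p = 0.115). Its groups did not overlap, as for 53.2% of all tested genes. ITGA7, the laminin receptor chain of muscle, was below the level for testing, with 0.762 and 0.757 FPKM in UM-164 libraries and 0.721 and 0.928 FPKM in vehicle libraries. These 3 chains summed to 156.1 and 155.7 FPKM in UM-164 libraries and 188.4 and 207.4 FPKM in vehicle libraries.

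No alpha chain that recognises the RGD sequence of fibronectin and vitronectin passed the test, where 1.31% of all tested genes did in either direction. ITGA5, the fibronectin receptor chain, had 26.1 and 25.8 FPKM in UM-164 libraries and 29.7 and 31.0 FPKM in vehicle libraries (log2 difference -0.22, SE 0.08, limma adjusted p = 0.241). Its groups did not overlap, as for 53.2% of all tested genes. ITGAV, the alpha chain of the vitronectin receptors, had 10.9 and 10.4 FPKM in UM-164 libraries, between the 8.12 and 12.5 FPKM of the vehicle libraries (log2 difference 0.07, 95% interval -0.46 to 0.61, limma adjusted p = 0.873). The interval leaves room for differences of either sign. ITGA2B, the platelet fibrinogen receptor chain, had 1.34 and 1.39 FPKM in UM-164 libraries and 1.37 and 1.26 FPKM in vehicle libraries, with overlapping groups (log2 difference 0.04, limma adjusted p = 0.914). ITGAE, the alpha chain of lymphocytes that reside in epithelia, is not counted among the RGD-binding chains. It had 4.35 and 6.001 FPKM in UM-164 libraries and 5.90 and 4.60 FPKM in vehicle libraries (log2 difference -0.03, limma adjusted p = 0.956). For ITGAE, 6.41% of exon bases are shared with HASPIN on the other strand, a mitotic kinase gene that had 3.07 and 2.14 FPKM in UM-164 libraries and 4.01 and 4.59 FPKM in vehicle libraries. The part of those reads in the ITGAE level was not tested.

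**Figure D2:**
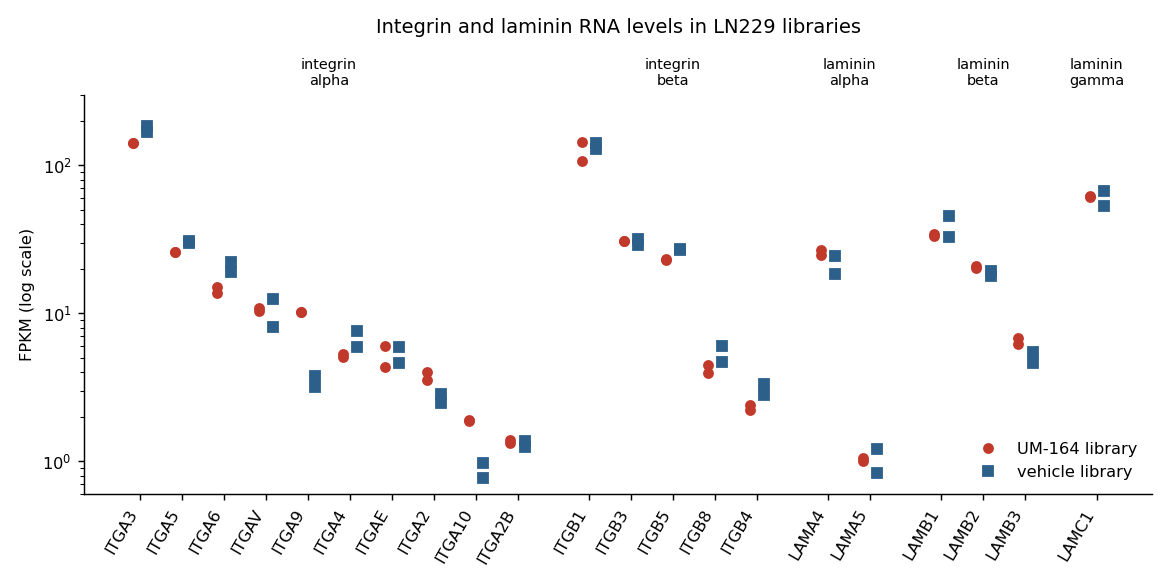
FPKM on a log axis of the 21 tested genes in each library, grouped by chain and ordered by mean level within a chain, with UM-164 libraries as circles left of vehicle libraries as squares. ITGA3 and ITGB1 stood above 100 FPKM in all 4 libraries, LAMC1 led the laminins, and ITGA9 showed the widest separation of the groups.

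As shares of the summed alpha-chain FPKM, ITGA3 took 63.3% and 63.6% in UM-164 libraries and 68.0% and 67.4% in vehicle libraries. ITGA9 took 4.58% and 4.56% in UM-164 libraries and 1.28% and 1.37% in vehicle libraries. The sum itself was 222.0 and 222.0 FPKM in UM-164 libraries and 248.1 and 273.2 FPKM in vehicle libraries, so the sum of alpha chains was lower in UM-164 libraries while the ITGA9 share was higher. No test was made of these shares.

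None of the 5 tested beta chains passed the test, where 1.31% of all tested genes did in either direction. ITGB1, the partner of most alpha chains including ITGA9, had 107.2 and 144.1 FPKM in UM-164 libraries and 129.4 and 141.9 FPKM in vehicle libraries. The UM-164 libraries lay on both sides of the vehicle libraries (log2 difference -0.12, SE 0.16, 95% interval -0.53 to 0.28, limma adjusted p = 0.702). ITGB1 took 63.7% and 70.3% of the summed beta-chain FPKM in UM-164 libraries and 67.1% and 67.4% in vehicle libraries.

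Among the beta chains that pair with ITGAV, the vitronectin receptor chain ITGB5 had 23.0 and 23.3 FPKM in UM-164 libraries and 26.9 and 27.2 FPKM in vehicle libraries (log2 difference -0.22, SE 0.08, limma adjusted p = 0.239). The ITGB5 groups did not overlap, as for 53.2% of all tested genes. ITGB8, whose product binds latent TGF-beta, had 4.46 and 3.96 FPKM in UM-164 libraries and 4.67 and 6.05 FPKM in vehicle libraries (log2 difference -0.31, SE 0.16, limma adjusted p = 0.360). ITGB3, which pairs with ITGAV and ITGA2B, had 30.9 FPKM in each UM-164 library and 28.8 and 31.7 FPKM in vehicle libraries (log2 difference 0.03, limma adjusted p = 0.871). The value of ITGB3 is uncertain, since 51.6% of its exon bases are shared with the GENCODE gene AC068234.1 on the same strand. AC068234.1 has no level in the deposited data, and its part in the ITGB3 level was not tested. ITGB4, the hemidesmosome chain that pairs with ITGA6, had 2.42 and 2.24 FPKM in UM-164 libraries and 2.79 and 3.32 FPKM in vehicle libraries (log2 difference -0.33, SE 0.15, limma adjusted p = 0.301). Like ITGA6, it was lower in both UM-164 libraries and did not pass the test.

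None of the 6 tested laminin chains passed the test, where 1.31% of all tested genes did in either direction. LAMC1, the gamma chain of most laminins, had 61.6 and 60.6 FPKM in UM-164 libraries, between the 53.4 and 66.8 FPKM of the vehicle libraries (log2 difference 0.03, 95% interval -0.29 to 0.36, limma adjusted p = 0.909). LAMA4, the alpha chain of vessel-wall laminin, had 26.6 and 24.7 FPKM in UM-164 libraries and 18.3 and 24.5 FPKM in vehicle libraries. Both UM-164 libraries were above both vehicle libraries, 1 of them by a small margin (log2 difference 0.27, SE 0.16, limma adjusted p = 0.398). LAMA4 took 95.4% and 95.6% of the summed laminin alpha-chain FPKM in UM-164 libraries and 94.7% and 94.5% in vehicle libraries. LAMA5, the alpha chain of many adult basement membranes, had 1.06 and 1.01 FPKM in UM-164 libraries and 0.839 and 1.21 FPKM in vehicle libraries (log2 difference 0.02, limma adjusted p = 0.972). Its value is uncertain, since 1.71% of its exon bases are shared with ADRM1 on the other strand, a proteasome gene that had 126 and 131 FPKM in UM-164 libraries and 173 and 145 FPKM in vehicle libraries, and the part of those reads in the LAMA5 level was not tested. With a mean of 1.03 FPKM it was the lowest gene tested, and ITGA1, with a mean of 0.897 FPKM, was the highest gene left untested.

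The tested laminin beta chains differed in the sign of the log2 difference, but that of LAMB1 turned to 0.033 without vehicle replicate 2. LAMB1, the beta chain found in most early and vascular laminins, had 34.2 and 33.1 FPKM in UM-164 libraries and 32.9 and 45.1 FPKM in vehicle libraries (log2 difference -0.19, SE 0.16, limma adjusted p = 0.557). LAMB2, the beta chain of synapses and of the kidney filter, had 21.0 and 20.2 FPKM in UM-164 libraries and 17.9 and 19.3 FPKM in vehicle libraries (log2 difference 0.14, limma adjusted p = 0.445). LAMB3, an epithelial chain, had 6.21 and 6.81 FPKM in UM-164 libraries and 4.62 and 5.46 FPKM in vehicle libraries (log2 difference 0.34, SE 0.13, limma adjusted p = 0.247). LAMB2 and LAMB3 were higher in both UM-164 libraries, and LAMB1 overlapped between the groups. LAMB1 took 55.7% and 55.1% of the summed beta-chain FPKM in UM-164 libraries and 59.3% and 64.5% in vehicle libraries. LAMA3, an alpha chain of epithelial laminin, averaged 0.108 FPKM.

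The remaining genes were near 0. ITGB2, the beta chain of leukocyte integrins, averaged 0.265 FPKM, and its alpha partners ITGAL, ITGAM, ITGAX and ITGAD averaged 0.0375, 0.0267, 0.0298 and 0.00114 FPKM. ITGAD was listed at 0 in 3 of the 4 libraries. ITGB6, ITGB7, LAMA1, LAMA2, LAMB4 and LAMC3 each averaged under 0.1 FPKM, and ITGB7 shares 42.1% of its exon bases with ZNF740 on the other strand. No fold change is given for these genes.

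The median log2 difference of the 21 tested genes was 0.02, with 10 below 0 and 11 above, and that of all tested genes was 0.01. The median was -0.12 for the 15 integrins, 9 of which were below 0, and 0.09 for the 6 laminins, 1 of which was below 0. Among the integrins, the 10 alpha chains had a median of 0.01 and the 5 beta chains a median of -0.22. Both UM-164 libraries were above both vehicle libraries for 6 of the 21 genes (28.6%), against 27.7% of all tested genes, and below them for 7 (33.3%), against 25.5%. The groups were thus apart for 13 of 21 genes (61.9%), where 53.2% of all tested genes were. Among the 6 and the 13 is ITGA10, which was tested only through its UM-164 mean. Apart from ITGA9, the log2 differences lay between -0.50 and 0.81.

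**Figure D3:**
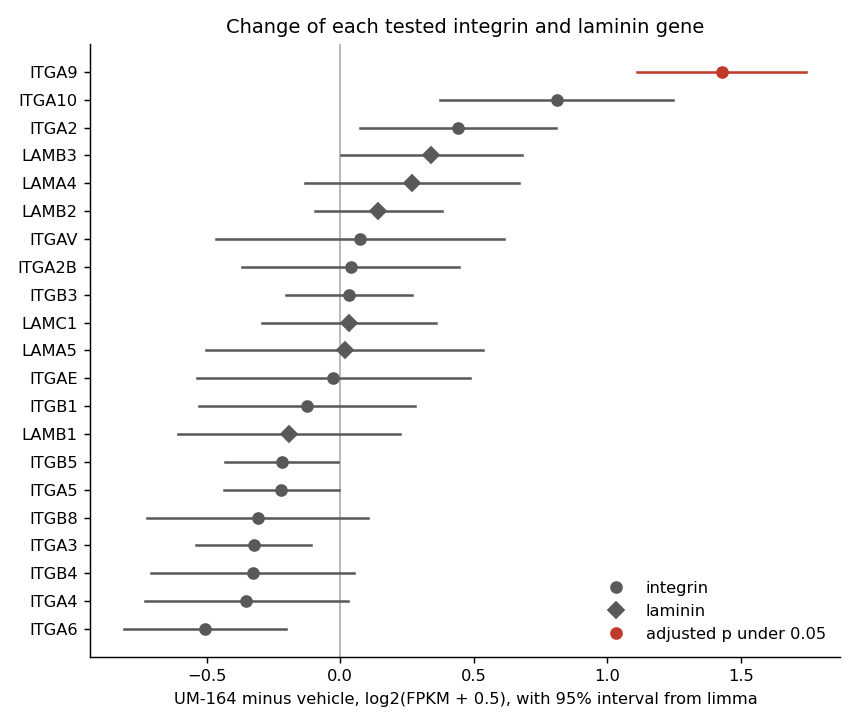
Log2 difference, UM-164 minus vehicle, of each tested integrin (circles) and laminin (diamonds) gene with its 95% interval from limma, ordered by size. ITGA9 at 1.43 is the only gene past the threshold and the other 20 lie between -0.50 and 0.81.

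The median gap between replicates of the 21 genes, whatever its sign, was 0.05 on the log2 scale between the UM-164 libraries and 0.21 between the vehicle libraries, against 0.12 and 0.18 over all tested genes. Vehicle replicate 2 was above vehicle replicate 1 for 17 of the 21 genes (81%), including 6 of 6 laminins, against 58.6% of all tested genes. The median difference between the replicates on the log2 scale was 0.21 for the integrin and laminin genes and 0.06 for all tested genes. In the UM-164 group, replicate 2 was above replicate 1 for 8 of 21 genes (38.1%), against 46.2% of all tested genes, and the median difference was -0.02. The widest vehicle difference was that of ITGAV at 0.60. The median of the 21 UM-164 minus vehicle differences was -0.16 without vehicle replicate 1, against 0.02 with all libraries and 0.03 without vehicle replicate 2. What set the vehicle libraries apart in these genes was not tested.

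**Figure D4:**
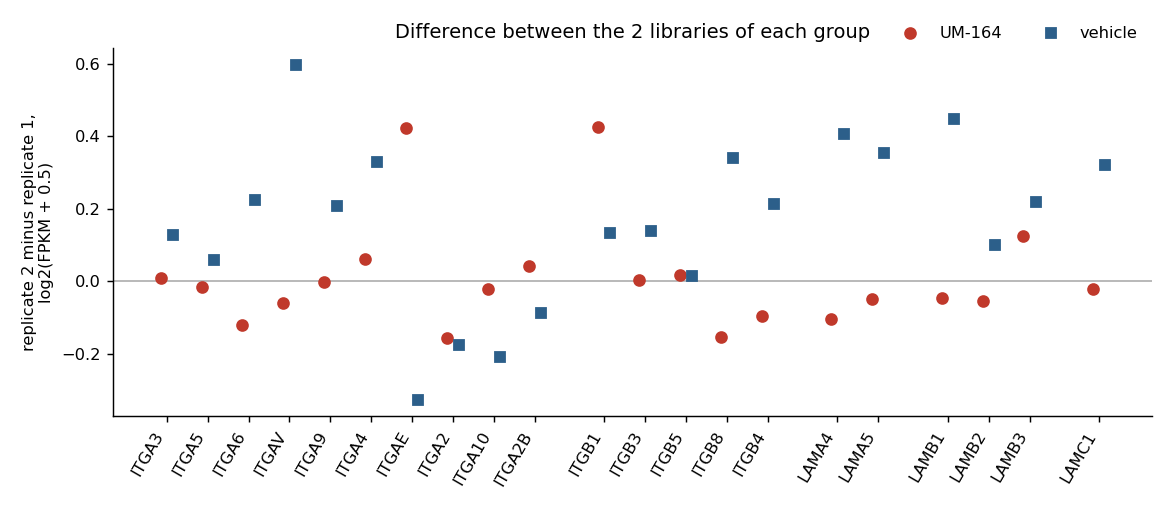
Difference between the 2 libraries of a group, replicate 2 minus replicate 1 of log2(FPKM + 0.5), for each tested gene, with UM-164 as circles and vehicle as squares. Vehicle replicate 2 was higher for 17 of 21 genes, while 8 of 21 were higher in UM-164 replicate 2.

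Proteins that act with integrins and laminins were followed through 3 lists of genes. Of 26 integrin adaptors and kinases 19 were tested and limma called 0, against 1.31% of all tested genes in either direction. At an unadjusted p under 0.05, 6 were lower and 0 higher, against 10.6% and 9.47% of all tested genes. The median was -0.16, with 15 of 19 below 0, where 48.1% of all tested genes were below 0. ACTN1, which crosslinks actin at adhesions, had 32.1 and 31.5 FPKM in UM-164 libraries and 42.8 and 49.0 FPKM in vehicle libraries (log2 difference -0.52, limma adjusted p = 0.0840). The actin regulator ZYX, the tensin TNS3 and the Src substrate BCAR1 had log2 differences of -0.42, -0.40 and -0.45 (limma adjusted p = 0.101, 0.130 and 0.151). None of these 4 passed the test.

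Of 16 basement membrane partners and other laminin receptors 14 were tested and 1 was called, lower, against 0.860% of all tested genes. At an unadjusted p under 0.05, 4 were lower and 0 higher, against 10.6% and 9.47% of all tested genes. SDC4, a heparan sulfate proteoglycan that acts with integrins at adhesions, had 66.7 and 63.7 FPKM in UM-164 libraries and 113.1 and 112.6 FPKM in vehicle libraries (log2 difference -0.79, limma adjusted p = 0.0256). SDC4 fell with no overlap, as did 25.5% of all tested genes. The call was lost when any 1 of the 4 libraries was left out, with no filter on low levels and with no variance trend. SDC1, a related syndecan, NTN4, a laminin-related netrin, and COL4A1, a chain of basement membrane collagen, had log2 differences of -0.57, -0.72 and -0.31 (limma adjusted p = 0.113, 0.126 and 0.221). The list's median was -0.07.

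Of 19 integrin ligands outside the laminins 13 were tested and 3 were called, all lower, against 0.860% of all tested genes. At an unadjusted p under 0.05, 5 were lower and 2 higher, against 10.6% and 9.47% of all tested genes. CCN1, a secreted matrix protein bound by several integrins, had 7.86 and 7.84 FPKM in UM-164 libraries and 50.6 FPKM in each vehicle library (log2 difference -2.61, limma adjusted p = 0.00168). Its relative CCN2 had 15.2 and 13.4 FPKM in UM-164 libraries and 72.8 and 74.1 FPKM in vehicle libraries (log2 difference -2.32, limma adjusted p = 0.00490). THBS1, an adhesive glycoprotein, had 17.5 and 15.3 FPKM in UM-164 libraries and 68.8 and 82.9 FPKM in vehicle libraries (log2 difference -2.18, limma adjusted p = 0.0101). These 3 fell with wide gaps between the groups, and without vehicle replicate 1 or without vehicle replicate 2 limma called 0 of the list. SPP1, the osteopontin that ITGA9 receptors bind, had 31.6 and 35.2 FPKM in UM-164 libraries and 20.2 and 20.8 FPKM in vehicle libraries (log2 difference 0.69, limma adjusted p = 0.0532). TNC, the tenascin C also bound by ITGA9 receptors and named here for that reason after its values were seen, had 73.3 and 71.0 FPKM in UM-164 libraries and 87.5 and 100.4 FPKM in vehicle libraries (log2 difference -0.38, limma adjusted p = 0.140). VCAM1 was under 0.1 FPKM in all 4 libraries. Neither SPP1 nor TNC passed the test, and they differed in sign. The list's median was -0.11. CCN1 and CCN2 are known targets of the YAP and TEAD factors. The study followed such targets in these libraries, and by PCR and immunoblot in LN229 and SF539 cells. The place of CCN1 and CCN2 in the list is therefore not independent evidence of its direction. Whether the same holds for THBS1 was not tested.

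**Figure D5:**
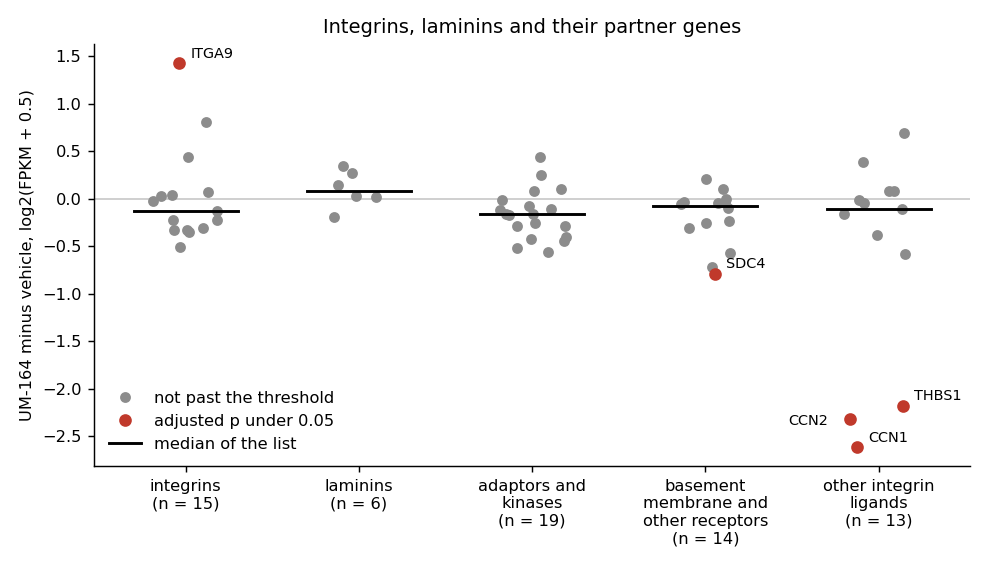
Log2 difference, UM-164 minus vehicle, of each tested integrin, laminin and partner gene (points) with the median of each list (bars); red marks a limma adjusted p under 0.05. ITGA9 is the only red point above 0, and SDC4, CCN1, CCN2 and THBS1 are below 0 with list medians between -0.16 and 0.09.

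Promoter letters were searched in the 250 bases before RefSeq transcription starts (GRCh38.p14), of which 32 starts of 25 integrin and laminin genes had an entry and ITGA9 had none. The TEAD motif GGAATG, on either strand, was in 4 of these 32 windows and in 11.9% of all 35116 windows, and the AP-1 motif TGANTCA was in 2 of them and in 6.57% of all windows. The tested genes with a match are shown as 30 bases each, 5′ to 3′ on the strand of the gene, with the matched letters in capitals, since they are the places where these genes carry the letters of factors that act with YAP or below p38. None of these genes passed the test, they were picked for the match, and a match is a description of letters only.
ITGA10 (chr1:145910124-145910153, minus strand): catcactcctccCATTCCttccaactttat
ITGA5 (chr12:54419331-54419360, minus strand): tccagggacccaGGAATGcccccccgccag
ITGB1 (chr10:32958395-32958424, minus strand): cgcggcgggagaGGAATGcgtttccggagg
LAMB3 (chr1:209651423-209651452, minus strand): gtcagccactcTGACTCAttcactttgggc
In ITGA10 the letters are those of GGAATG read on the opposite strand. The stretches of ITGA10 and ITGA5 also overlap an annotated exon of their gene, and those of ITGB1 and LAMB3 lie in no annotated exon of their gene. The match ended 85 bases before the RefSeq start in ITGA10, 76 in ITGA5, 176 in ITGB1 and 60 in LAMB3.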

How the data were processed

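RNA of 4 LN229 libraries was sequenced. The authors deposited 1 table of FPKM values per gene and library, with reads trimmed with cutadapt 1.9, checked with FastQC and aligned with HISAT2 to GRCh38 with Ensembl release 101, per the submitters' notes. The program that computed FPKM and the strand setting are not given in the sources used here. Deposited columns holding the authors' own comparison (fold change, p-values and direction) were not used. FPKM were taken as deposited, log2(FPKM + 0.5) was computed, and genes with a mean of at least 1 FPKM were tested with limma 3.58.1 in R 4.3.3 (2 libraries per group, variance trend, Benjamini-Hochberg, threshold 0.05), tested on simulated data. Tables used Python 3.11.15, numpy 2.4.6, pandas 2.3.3 and scipy 1.17.1. Low FPKM values were not whole multiples of 1 step (24.5% to 26.1% lay within 0.05 steps), so reads were not recovered and no count test was run.

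Genes were placed by gene ID in GENCODE on GRCh38. Every integrin and laminin gene was counted, and 1 item is not reported here. Those tested were given with values, the 3 highest of the rest were named, and up to 4 genes with the smallest p were taken from each partner list. Promoters of called genes were to be shown, but ITGA9 had no entry, so the promoter matches of tested genes were chosen after values were seen. The genes and lists were chosen with earlier results of these data known. Alternatives were pseudocounts of 0.1 and 1, no filter or a mean of at least 5 FPKM, median-ratio scaling, quantile normalization, rescaling on protein-coding genes, no variance trend, each library left out and a replicate block.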

Additional observations from a re-analysis of the deposited data

How the results depend on the processing

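The number of integrin and laminin genes called lower was 0 in every alternative, and the number called higher, 1 with all libraries, was 0 with no filter on low levels and between 0 and 1 with a library left out. ITGA9 kept its direction throughout. Basement membrane partners called, 1 with all libraries, were 0 with no filter, 0 with no variance trend and 0 with any library left out. Integrin ligands called, 3 with all libraries, were 1 with no filter, 4 at a mean of at least 5 FPKM and between 0 and 3 with a library left out. The median log2 difference of the tested integrin and laminin genes ran from -0.16 to 0.034 with a library left out and was -0.16 without vehicle replicate 1. Under quantile normalization LAMA5 turned to -0.074 and ITGA2B to -0.034. With a library left out, the log2 difference crossed 0 for LAMB1 (-0.42 to 0.033), ITGB1 (-0.34 to 0.089), ITGAE (-0.24 to 0.19), LAMA5 (-0.16 to 0.19), LAMC1 (-0.13 to 0.19), ITGB3 (-0.036 to 0.10), ITGA2B (-0.0054 to 0.083) and ITGAV (-0.22 to 0.37), none of which passed the test. The cause of these changes was not tested. Over all genes, 52 higher and 99 lower calls became 3 and 1 with no filter, 66 and 158 at a mean of at least 5 FPKM, 22 and 28 with no variance trend, 31 and 53 without UM-164 replicate 2, 4 and 0 without vehicle replicate 1, and 6 and 0 without vehicle replicate 2. No scaling moved the median of all genes by over 0.1. The labels do not say whether same-numbered libraries were paired. The correlation of their deviations was -0.06 over 11516 genes, which cannot settle it with so few libraries. With a replicate block ITGA9 stood at 1.43 (limma adjusted p = 0.0204), and 57 genes were called higher and 107 lower. The call of no integrin or laminin gene changed with that block. Leaving out 1 library leaves a group with 1, which is then assumed to vary like the other group. FPKM carry no depth, so no counting error can be given for the genes under 1 FPKM.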

Other observations

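RNAs named after integrin and laminin genes, which are not chains of these proteins, were also in the table. ITGA6-AS1, annotated antisense to ITGA6, had 0.0681 and 0 FPKM in UM-164 libraries and 0.240 and 0.297 FPKM in vehicle libraries. ITGB2-AS1 had 0.0483 and 0.135 FPKM in UM-164 libraries and 0.663 and 0.175 FPKM in vehicle libraries. Both were lower in each UM-164 library, at levels under the minimum for testing. LAMA4-AS1 was higher in each, with 0.0245 and 0.0422 FPKM in UM-164 libraries and 0.0054 and 0.0152 FPKM in vehicle libraries. ITGA9-AS1, ITGB1-DT, LAMC1-AS1 and LAMA5-AS1 had overlapping groups. Of all tested genes, 25.5% were lower in each UM-164 library and 27.7% higher. Reads of antisense partners cannot be told apart where counting ignores the strand. ITGB1BP1, which binds the tail of the ITGB1 chain, had 12.6 and 12.1 FPKM in UM-164 libraries and 13.2 and 11.8 FPKM in vehicle libraries, with overlapping groups (log2 difference -0.02, limma adjusted p = 0.946). ITGB3BP, a centromere protein, had 4.21 and 3.59 FPKM in UM-164 libraries and 3.66 and 3.22 FPKM in vehicle libraries (log2 difference 0.16, limma adjusted p = 0.586). Neither passed the test.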
